A study of Mus musculus with 4 samples.

Results

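The genes described here encode the hypoxia-inducible factor (HIF) subunits Hif1a, Epas1, Hif3a, Arnt and Arnt2, the oxygen sensors Egln1, Egln2, Egln3 and Hif1an, and Vhl. They were chosen by name. Each probe set whose platform annotation gives exactly 1 gene symbol, and that symbol 1 of these, was taken, which gave all 10 genes, out of 18193 on the array, and 30 probe sets. Of the 30 probe sets, 20 were bright enough to be tested, and each gene had at least 1 of them.

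Kidney RNA was taken at embryonic day 15 from C57BL/6 mice, labelled female. Dams of the iron-deficient group ate a diet with 2 to 6 ppm iron, and dams of the control group ate one with 220 ppm, both from 3 weeks before gestation and through breeding and pregnancy, starting at 8 weeks of age. There were 2 pools per diet, with 16 kidneys in each, and every pool had 1 Affymetrix array, which gives a signal per probe set. Whether pools on the same diet were drawn from different litters is not in the labels, so the p-values rest on a pool-to-pool spread that could be technical.

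HIF is a dimer of an alpha and a beta subunit that switches on genes of glycolysis, angiogenesis and red cell production when oxygen is short. In the presence of oxygen the prolyl hydroxylases encoded by the Egln genes modify the alpha subunit, which is then bound by the Vhl protein, ubiquitinated and degraded, while the asparaginyl hydroxylase Hif1an blocks the recruitment of coactivators. These hydroxylases need iron and oxoglutarate as well as oxygen, and much of their control over HIF acts on the protein, which an array does not measure. In the kidney Epas1 is known mainly from endothelial and interstitial cells and Hif1a from epithelial cells. The Epas1 messenger carries an iron-responsive element, to which the iron regulatory protein encoded by Aco1 can bind.

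The arrays differed in ways that touch every value below. Iron-deficient pool 1 correlated with the other arrays at 0.883 to 0.913 over log2 signals of the tested probe sets, which are not independent replicates, while the control pools reached 0.978 with each other. The 18S 5′ control probe set read 2144.5 in that pool, against 243 in iron-deficient pool 2 and 291.9 and 289.4 in the control pools. Its hybridisation spike controls had a geometric mean of 2840, against 1945 in iron-deficient pool 2 and 1368 and 1772 in the control pools. The Y-linked gene Eif2s3y read 253.6 and 20.8 in the iron-deficient pools and 594.5 and 600 in the control pools, although every sample is labelled female. Because it was lower in both iron-deficient pools, a difference in sex make-up cannot be told apart from diet. The part of these differences in the results was not tested. Over all 27022 tested probe sets the median log2 difference, iron-deficient minus control, was -0.10, and it was 0.09 after median centring of the arrays.

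The alpha, beta and hydroxylase genes showed no common direction. For 6 of the 20 tested probe sets both iron-deficient signals exceeded both control signals; these belong to Hif3a, Egln1, Egln3 and Arnt, while for 3 both were below, and these belong to Hif1a, Arnt2 and Hif1an. Over all tested probe sets these shares were 11.8% and 25.0%. By limma, with p-values adjusted over all 27022 probe sets, none of the 20 passed (smallest adjusted p = 0.852), and 0% of all tested probe sets did. At an unadjusted limma p under 0.05 lay 2 higher probe sets, of Egln1 and Hif3a, and 2 lower ones, of Hif1a and Hif1an, or 4 of 20. Of all tested probe sets, 3.96% lay there, 1.14% higher and 2.81% lower. After quantile normalization the member count was 2 higher and 0 lower (3.85% of all probe sets). After median centring it was 3 higher and 0 lower (3.92%). Leaving out pools moved that count of 4. It was 8 without pool 1 of the iron-deficient diet (9.72% of all probe sets) and 10 without its pool 2 (39.0%). It was 0 without control pool 1 (3.96%) and 0 without control pool 2 (1.24%). An exact permutation of 4 pools cannot give a two-sided p below 0.333 for any single gene.

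**Figure D1:**
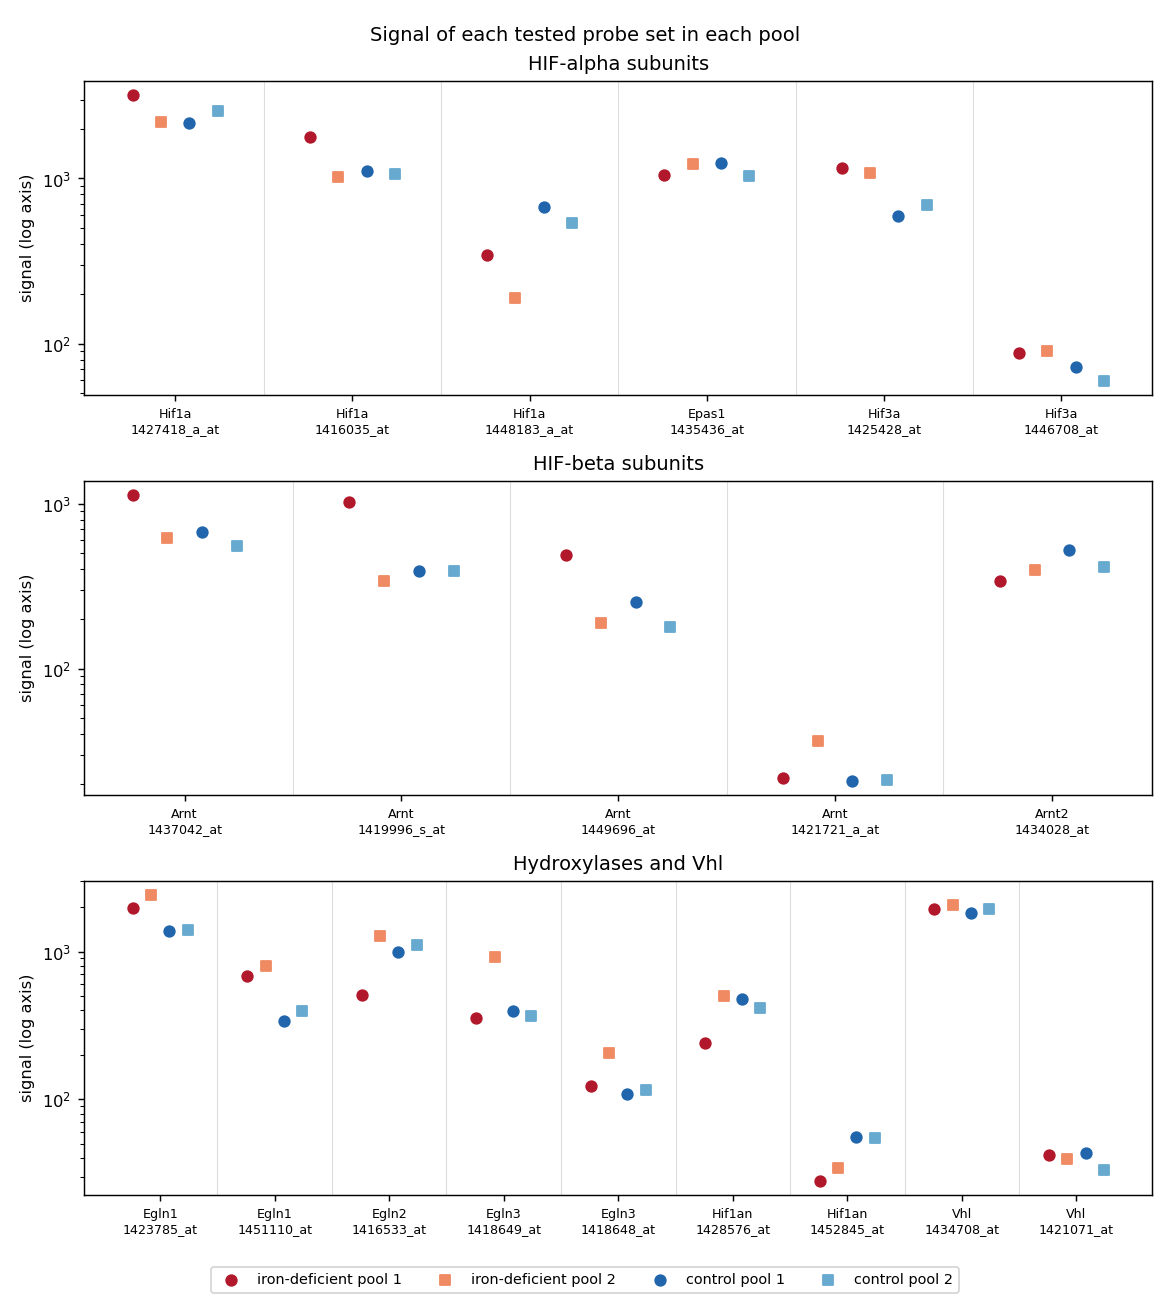
Signal of each tested probe set (log axis) in the 2 iron-deficient and the 2 control pools, by role. Hif3a and Egln1 are higher in both iron-deficient pools, Arnt and Egln3 are high in mainly 1 of them, and the 3 Hif1a probe sets do not share a direction.

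Hif3a, an alpha subunit with several splice forms, some of which act as inhibitors of the other HIF proteins, gave higher signals in the iron-deficient pools on both tested probe sets. The brighter (1425428_at) read 1152.9 and 1084.1 in the iron-deficient pools, against 588.6 and 692.2 in the control pools. Neither iron-deficient signal overlapped the control range, and the iron-deficient pools lay closer together than the control pools did. The log2 difference was 0.81 ± 0.32 (SE, n = 2 pools each), a fold of 1.75, with a limma p of 0.0471 and adjusted p = 0.852. The dimmer (1446708_at) read 87.9 and 90.8, against 72.2 and 59.6, again without overlap, and differed by 0.45 ± 0.32. Leaving out each pool in turn gave 0.69 to 0.93 for the brighter and 0.31 to 0.58 for the dimmer.

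The other 4 Hif3a probe sets were too dim to be tested. For each array, the brightest of 27 control probe sets with no added transcript served as background, which was 14.4 and 13.3 in the iron-deficient pools and 8.5 and 8.2 in the control pools. Of the dim probe sets, 1421572_at read 17.6 and 12.5 in the iron-deficient pools, 1 of them above background, and 5.0 and 3.9 in the control pools, both below. Another, 1425429_s_at, read 18.7 and 16.6, against 12.0 and 12.6, all above background and without overlap. It was designed on the same sequence record as the brightest one, so the pair is not independent. The remaining 2 (1447061_at and 1459052_at) overlapped between diets, with no control signal above background in 1447061_at and no signal above background at all in 1459052_at.

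The RefSeq promoter window of Hif3a, from 250 bases before to 50 after its start (GRCm38.p6, chr7:17062378-17062677, minus strand), is shown because both tested probe sets lay higher. It was searched on both strands for the 2 forms of the core to which HIF binds, ACGTG and GCGTG. Capitals mark each match, and a match on the opposite strand reads CACGT or CACGC.
Hif3a: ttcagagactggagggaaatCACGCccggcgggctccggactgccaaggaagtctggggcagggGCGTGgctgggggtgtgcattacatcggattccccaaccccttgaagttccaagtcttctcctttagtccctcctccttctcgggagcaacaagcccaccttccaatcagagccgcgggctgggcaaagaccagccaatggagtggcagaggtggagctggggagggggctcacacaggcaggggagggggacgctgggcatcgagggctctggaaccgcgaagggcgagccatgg
The window holds no ACGTG and 2 copies of GCGTG, starting 230 and 186 bases before the start site. Of 32851 mouse promoter windows, 19.6% hold ACGTG, 32.4% hold GCGTG and 43.8% hold either. A match describes letters and does not show that a factor binds.

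Epas1, the alpha subunit whose messenger carries the iron-responsive element, had a log2 difference near 0. Its tested probe set (1435436_at) read 1047.3 and 1226.3 in the iron-deficient pools and 1242.7 and 1036.7 in the control pools. Each control pool lay near 1 iron-deficient pool, so the diets overlapped fully. The log2 difference was -0.002 ± 0.33 (SE), with a 95% interval of -0.82 to 0.81, which leaves room for changes of either sign, and after median centring it was 0.19. The other probe set (1449888_at) read 5.9 and 19.7, against 3.4 and 5.5, and only the 19.7 was above background. Endothelial markers, genes of a cell type known to express Epas1, summed to 3800 and 5116 in the iron-deficient pools and 5912 and 6188 in the control pools, with 1 of 10 higher and 5 of 10 lower in both, where 13.1% and 26.0% of all tested genes were. Stromal markers summed to 19139 and 16657, against 13641 and 14214, with 5 of 10 higher in both and none lower. No marker of these lists was below background in all 4 pools, and their part in the Epas1 signal was not tested. In pooled kidneys, fewer cells of a type and less RNA per cell cannot be told apart.

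The probe sets of Hif1a, the most widely expressed alpha subunit, disagreed. The brightest (1427418_a_at) read 3185.2 and 2186.6 in the iron-deficient pools and 2151.1 and 2556.1 in the control pools, and the next (1416035_at) read 1775.4 and 1013.8, against 1112.6 and 1069.1. On both, iron-deficient pool 1 was high while pool 2 lay within or just below the control range. Their log2 differences were 0.17 ± 0.36 and 0.30 ± 0.39, and without iron-deficient pool 1 they were -0.10 and -0.11. After quantile normalization the first was -0.05. Another probe set (1448183_a_at) read 344.1 and 188.4 in the iron-deficient pools, against 673.8 and 539.6 in the control pools. Here both iron-deficient pools lay below both control pools, by -1.24 ± 0.42 on the log2 scale, with a limma p of 0.0271 and adjusted p = 0.852. That difference was -1.68 when pool 1 was left out and -0.81 when pool 2 was. The platform annotation pairs all 3 with the 1 symbol, and which part of the transcript each reads was not analysed here. The probe set too dim to be tested (1431981_at) read 21.5 and 15.1, against 12.1 and 5.9, with 1 control pool below background.

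**Figure D2:**
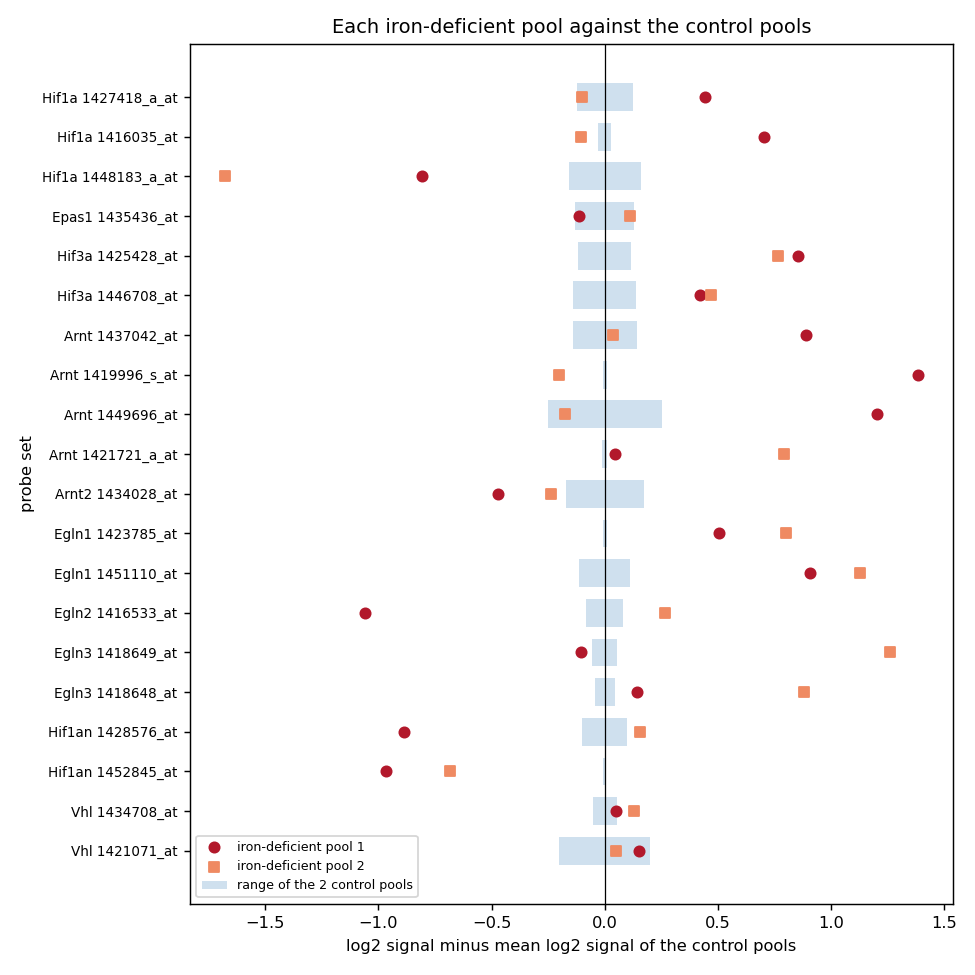
Log2 signal of each iron-deficient pool minus the mean log2 signal of the control pools, for the 20 tested probe sets; the bars span the 2 control pools. The iron-deficient pools lie on the same side and close together for Hif3a and Egln1. They lie farther apart for Hif1a, Arnt, Egln2, Egln3 and the brighter Hif1an probe set.

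Arnt, the beta subunit that is the common partner of the alpha subunits, was high in iron-deficient pool 1 alone on its 3 brighter probe sets. The brightest (1437042_at) read 1127.3 and 623.4 in the iron-deficient pools, against 671.1 and 551.3 in the control pools. The next (1419996_s_at) read 1020.4 and 339.3, against 393.6 and 388.3, and the one after it (1449696_at) read 489.7 and 188.1, against 252.8 and 178.6. On each of them the signal of pool 1 was the highest of the 4, while that of pool 2 lay within the control range or below it. Their log2 differences of 0.46, 0.59 and 0.51 had SEs of 0.41 to 0.57. Leaving out pool 1 gave 0.04, -0.20 and -0.18, and leaving out pool 2 gave 0.89, 1.38 and 1.20. The last 2 of these were designed on the same sequence record. A dimmer one (1421721_a_at), close to the filter, read 21.6 and 36.3, against 20.8 and 21.1, and was high in pool 2 instead. The remaining one (1425064_at) was too dim to be tested. It read 12.4 and 7.7, against 9.2 and 13.1, with both iron-deficient signals below the higher background of their arrays.

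Arnt2, a related beta subunit best known from neurons and the kidney, read 337.9 and 397.2 in the iron-deficient pools and 527.5 and 415.5 in the control pools on its only tested probe set (1434028_at). Both iron-deficient pools lay below both control pools, but pool 2 was close to control pool 2. The log2 difference of -0.35 ± 0.33 was smaller than 2 standard errors and was -0.18 without control pool 1. Its dim probe sets overlapped between diets. Of these, 1420670_at read 12.8 and 2.4 in the iron-deficient pools, against 21.7 and 8.8, and 1420669_at read 12.9 and 8.3, against 12.2 and 11.1. Both were below background in the iron-deficient pools and above it in the control pools, but background itself was higher in the iron-deficient pools (14.4 and 13.3, against 8.5 and 8.2).

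Of the prolyl hydroxylases, Egln1 was higher in both iron-deficient pools on both of its probe sets. Egln1 encodes the main enzyme that sets HIF alpha stability in most cells and is itself a HIF target. The brighter (1423785_at) read 1954.2 and 2402.5 in the iron-deficient pools, against 1371.4 and 1387.4 in the control pools, a log2 difference of 0.65 ± 0.32 and a limma p of 0.0931 (adjusted p = 0.852). The dimmer (1451110_at) read 681.4 and 794.9, against 336.1 and 393.3. Its difference was 1.02 ± 0.32, a fold of 2.02, with a limma p of 0.0222 and adjusted p = 0.852. The groups did not overlap on either probe set, and pool 2 was the higher iron-deficient pool on both. Leaving out each pool in turn gave 0.50 to 0.80 for the brighter and 0.90 to 1.13 for the dimmer. Both were designed on the same sequence record, so they are not independent.

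Egln3, a hydroxylase known as strongly HIF-induced and as abundant in heart and muscle, was high in iron-deficient pool 2 alone. Its brighter probe set (1418649_at) read 356 and 917.2 in the iron-deficient pools, against 397.3 and 368.4 in the control pools. Pool 1 was the lowest of the 4 and pool 2 the highest by far. The dimmer (1418648_at) read 123.9 and 206.8, against 108.9 and 115.8, so that here pool 1 was just above the control pools. The log2 differences were 0.58 ± 0.52 and 0.51 ± 0.38. Leaving out pool 1 gave 1.26 and 0.88, and leaving out pool 2 gave -0.10 and 0.14. The 8 skeletal muscle markers summed to 373 and 2122 in the iron-deficient pools and 601 and 438 in the control pools. All 6 tested ones were higher in pool 2 than in both control pools, where 4924 of all 12997 tested genes were. Of the others, Myh8 was higher in both iron-deficient pools and Ckm was not above background in any pool. Liver markers summed to 309.6 and 3086 in the iron-deficient pools, against 1600 and 1457 in the control pools, low in pool 1 and high in pool 2. Of 7 tested, pool 1 lay below both control pools for 6 and pool 2 above both for 7. Of all 12997 tested genes, 7820 and 4924 did so. Whether other tissue took part in the Egln3 signal was not tested.

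Egln2, the hydroxylase known as oestrogen-inducible, was low in iron-deficient pool 1 alone. Its single probe set (1416533_at) read 504.7 and 1264.5 in the iron-deficient pools, against 992.3 and 1111.8 in the control pools. Pool 1 was the lowest and pool 2 the highest of the 4, so that the log2 difference of -0.39 ± 0.51 was 0.27 without pool 1 and -1.06 without pool 2.

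The promoter windows of the Egln genes are shown because the family members differed in their pattern over the pools, with the same cores in capitals, all on the minus strand of GRCm38.p6 and 5′ to 3′ along the gene. Egln1 lies at chr8:124949205-124949504, Egln2 at chr7:27166753-27167052 and Egln3 at chr12:54203825-54204124. A second start of Egln2 has a window of its own with 1 GCGTG and no ACGTG.
Egln1: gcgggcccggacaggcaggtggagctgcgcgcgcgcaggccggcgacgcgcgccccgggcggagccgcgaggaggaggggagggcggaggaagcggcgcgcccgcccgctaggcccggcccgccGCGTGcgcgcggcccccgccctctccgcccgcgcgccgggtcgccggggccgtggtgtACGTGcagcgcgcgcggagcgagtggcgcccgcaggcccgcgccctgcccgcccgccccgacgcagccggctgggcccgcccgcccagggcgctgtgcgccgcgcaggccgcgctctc
Egln2: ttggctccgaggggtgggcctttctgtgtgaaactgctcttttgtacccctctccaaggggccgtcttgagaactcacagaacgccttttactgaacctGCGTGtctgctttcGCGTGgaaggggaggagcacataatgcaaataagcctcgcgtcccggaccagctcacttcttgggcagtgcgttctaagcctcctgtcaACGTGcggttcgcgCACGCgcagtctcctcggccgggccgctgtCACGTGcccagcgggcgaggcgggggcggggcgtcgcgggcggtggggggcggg
Egln3: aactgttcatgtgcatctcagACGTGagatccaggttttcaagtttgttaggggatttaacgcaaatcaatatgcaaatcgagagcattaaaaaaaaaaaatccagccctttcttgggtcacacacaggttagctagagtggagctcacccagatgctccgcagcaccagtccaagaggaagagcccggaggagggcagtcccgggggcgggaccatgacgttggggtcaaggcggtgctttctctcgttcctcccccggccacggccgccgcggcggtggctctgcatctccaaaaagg
Egln1 holds 1 ACGTG and 1 GCGTG, starting 68 and 126 bases before the start site, in a window with 86% G and C. Egln3 holds 1 ACGTG, 229 bases before it, and no GCGTG. Egln2 holds the most matches of the 3, with 3 of each form. Its ACGTG matches at 4 and 3 bases before the start overlap, because CACGTG reads the same on both strands. Of the 9 member genes with a window, 4 hold ACGTG and 4 hold GCGTG, and over all 27025 genes with a window these shares were 21.8% and 35.2%. Of the listed HIF target genes, Egln1 and Egln3 included, 36 have a window and 25 of these hold ACGTG. Epas1 has no entry in the table used.

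Hif1an, the asparaginyl hydroxylase, was lower in the iron-deficient pools on 1 of 2 tested probe sets. The brighter (1428576_at) read 241.5 and 496.8 in the iron-deficient pools, against 478.3 and 416.5 in the control pools. As for Egln2, pool 1 was the lowest and pool 2 the highest of the 4, and the log2 difference of -0.37 ± 0.44 was 0.15 without pool 1. The dimmer (1452845_at), from the same sequence record, read 28.1 and 34.2, against 55.2 and 54.7. There both iron-deficient pools lay below both control pools, by -0.83 ± 0.32 on the log2 scale, with a limma p of 0.0451 and adjusted p = 0.852. The difference was -0.97 to -0.68 when each pool was left out in turn. The probe set too dim to be tested (1447817_at) read 6.8 and 0.8, against 16.6 and 5.4, and was below background in both iron-deficient pools and in 1 control pool.

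Vhl is the substrate-binding part of the ubiquitin ligase that recognises hydroxylated HIF alpha, and its signals were close in both diets. The brighter (1434708_at) read 1947.0 and 2058.3 in the iron-deficient pools and 1815.2 and 1953.8 in the control pools. The dimmer (1421071_at) read 42.1 and 39.3, against 43.6 and 33.0. The groups overlapped on both. The log2 differences were 0.09 ± 0.31 and 0.10 ± 0.33, with 95% intervals of -0.69 to 0.87 and -0.73 to 0.93, and the first was -0.07 after quantile normalization.

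Across the 20 tested probe sets, the iron-deficient pools differed from each other by more than the control pools did for 13. On the log2 scale the median absolute gap was 0.64 for the iron-deficient diet and 0.21 for the control diet. Over all tested probe sets the gaps were 0.62 and 0.20, and the iron-deficient one was larger for 77.0%. Iron-deficient pool 1 lay above both control pools for 11 and below both for 6 of the 20, where all tested probe sets gave 34.9% and 52.6%. Iron-deficient pool 2 lay above for 10 and below for 5, where all gave 31.3% and 40.5%.

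Partners of these genes in HIF degradation overlapped between diets for 13 of 16 genes. Of the 16 tested (brightest probe set of each gene), both iron-deficient pools were higher for 1 and lower for 2, none lay at a limma p under 0.05 in either direction, and the median log2 difference was -0.05. With 1 probe set per gene, 13.1% of all tested genes were higher and 26.0% lower in both pools, 1.26% and 3.30% lay at an unadjusted p under 0.05, and the median was -0.14. Cul2, the scaffold of the Vhl ligase, read 774.1 and 898.5 in the iron-deficient pools and 899.1 and 846.9 in the control pools (log2 difference -0.07, or 0.13 after median centring). Eloc, the elongin that joins Vhl to it, differed by -0.28 ± 0.33, and by -0.07 without iron-deficient pool 1. Siah2, a ubiquitin ligase that acts on Egln proteins, read 30.7 and 77.8, against 88.1 and 104.1 (-0.97 ± 0.51). Siah2 differed by -0.30 when pool 1 was left out and by -1.64 when pool 2 was. Os9, a lectin reported to bind HIF and its hydroxylases, read 655.1 and 556.9, against 467.5 and 410.4 (0.46 ± 0.32). Siah1a, the relative of Siah2, read 2162.9 and 917.3, against 1006.1 and 1031.7, high in pool 1 alone.

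Of 18 coactivators and modulators, both iron-deficient pools were higher for 4 and lower for 6, against 13.1% and 26.0% of all genes. At an unadjusted limma p under 0.05 lay none in the higher direction and 1 in the lower, against 1.26% and 3.30% of all genes. That 1 was Cited4, which competes for the coactivators Ep300 and Crebbp, at 16.4 and 17.3 in the iron-deficient pools, against 39.5 and 34.1 in the control pools (-1.12 ± 0.32, adjusted p = 0.852 by limma). Both iron-deficient signals of Cited4 were close to background, 14.4 and 13.3, and its difference was -0.68 with an offset of 16 before the log. Its relative Cited1, also a marker of nephron progenitors, read 548.9 and 1019.9, against 1059.2 and 1272.9 (-0.63 ± 0.42), and Cited2, a HIF target that feeds back on HIF, differed by 0.39 ± 0.38. Leaving out pool 1 gave -0.19 for Cited1 and 0.06 for Cited2, and leaving out pool 2 gave -1.08 and 0.73. Ep300 read 873.5 and 575.2, against 640.4 and 587.3, and Crebbp read 3158.2 and 1816, against 1650.2 and 1755.6. Both were highest in pool 1. Pkm, the pyruvate kinase reported to bind HIF, read 5079 and 5361, against 3138 and 3359 (0.68 ± 0.31). Sirt7, a deacylase reported to restrain HIF proteins, read 95.5 and 201.2, against 304.8 and 252.

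The iron regulatory proteins overlapped between diets. Aco1 read 774.5 and 740.8 in the iron-deficient pools and 823.1 and 619.4 in the control pools (0.09 ± 0.33). Ireb2, its relative, read 1228.2 and 1240.7, against 1309.5 and 1217.7 (-0.03 ± 0.31, or 0.16 after median centring). Fbxl5, the iron-sensing ligase subunit that removes both proteins, differed by 0.01 ± 0.32. Aco1 is controlled mainly by loss or gain of its iron-sulfur cluster, which these signals do not measure.

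Genes that HIF is known to switch on lay farther from the control pools than the member genes did, which was not tested as a difference between lists. The members and the lists were chosen with earlier results of these data known, so the counts are not independent of the data. Of 36 tested target genes other than Egln1 and Egln3, both iron-deficient pools were higher for 31 and lower for 1, the carbonic anhydrase Car12, against 13.1% and 26.0% of all genes. At an unadjusted limma p under 0.05 lay 20 higher and 1 lower, against 1.26% and 3.30% of all genes, and none passed over all 27022 probe sets. The median log2 difference was 1.04, against 0.13 for the brightest probe sets of the 10 member genes. Examples with known roles were Pgk1 and Aldoa, enzymes of glycolysis, at 0.91 ± 0.33 and 0.74 ± 0.33, and Vegfa and Slc2a1, at 1.31 and 1.34. Smallest in p were Adm, Hk2, Pfkfb3 and Slc2a3, with differences of 2.42, 1.60, 1.59 and 2.34. Proximal tubule markers differed in the same pools, with 11 of 11 lower in both iron-deficient pools and sums of 541 and 1210, against 4492 and 4237. So did red cell markers, with sums of 9582 and 6716, against 2965 and 3302, with 7 of 9 higher and 1 lower in both. Of the 8 tested, 6 were higher and 1 lower. The lower one was Alas2, the erythroid enzyme that starts haem synthesis, at 135.4 and 305.8, against 520.1 and 479.9. Granulocyte markers summed to 2585 and 1817, against 461 and 481, with 9 of 9 higher in both, of which 7 were bright enough to be tested. In the control pools Ctsg and Ltf were below background in both, and Camp, Ngp and Elane in 1. The part of these cell types in the target gene values was not tested.

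**Figure D3:**
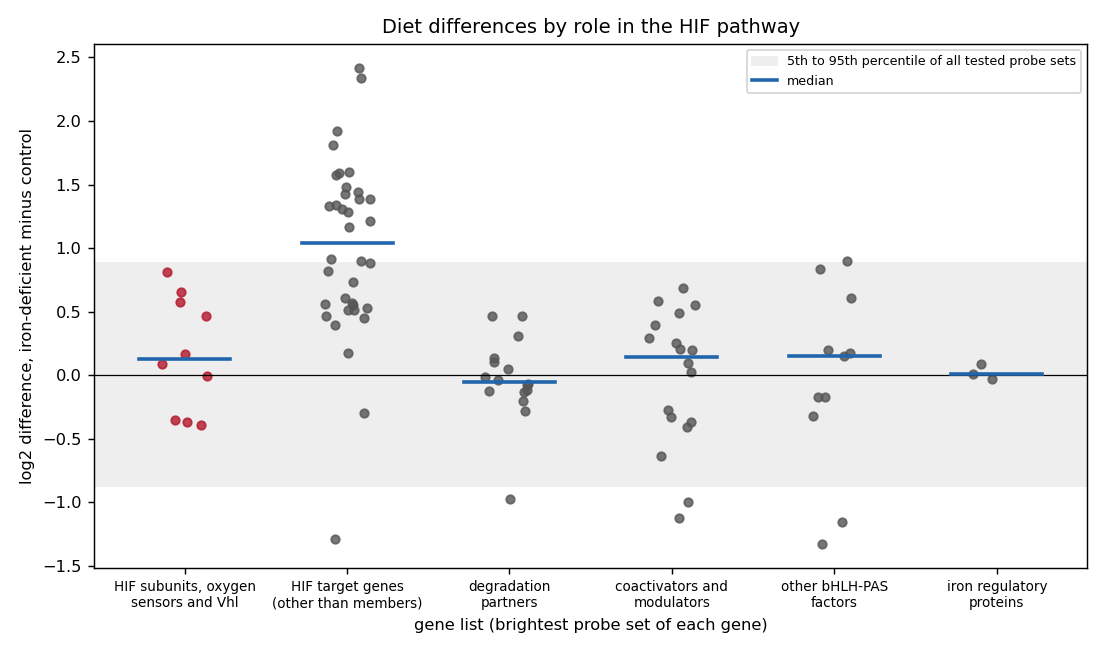
Log2 difference, iron-deficient minus control, of each gene's brightest probe set by role in the HIF pathway; blue lines are medians and the grey band runs from -0.87 to 0.88, the 5th to 95th percentile of all tested probe sets. On these probe sets all 10 member genes lie inside the band, while most HIF target genes lie above 0 and their median is 1.04. Dimmer probe sets of Egln1 (1451110_at, 1.02) and Hif1a (1448183_a_at, -1.24), not plotted, lie outside the band.

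The pools also split the target genes. In iron-deficient pool 2, several targets stood farther from the control mean than in pool 1, as Egln3 did. Ndufa4l2, an inhibitor of respiratory chain activity, had log2 distances of -0.01 in pool 1 and 1.14 in pool 2, and Aldoc, a brain-type aldolase, 0.88 and 2.28. Ankrd37, an ankyrin repeat protein, had 0.67 and 1.89. In the other direction, Slc2a3 had 2.95 in pool 1 and 1.72 in pool 2, and Flt1, a receptor for Vegfa, 2.39 and 1.45. Hif3a, at 0.85 and 0.76, and Egln1, at 0.50 and 0.80, were the member genes whose brightest probe sets lay above the control pools in both.

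**Figure D4:**
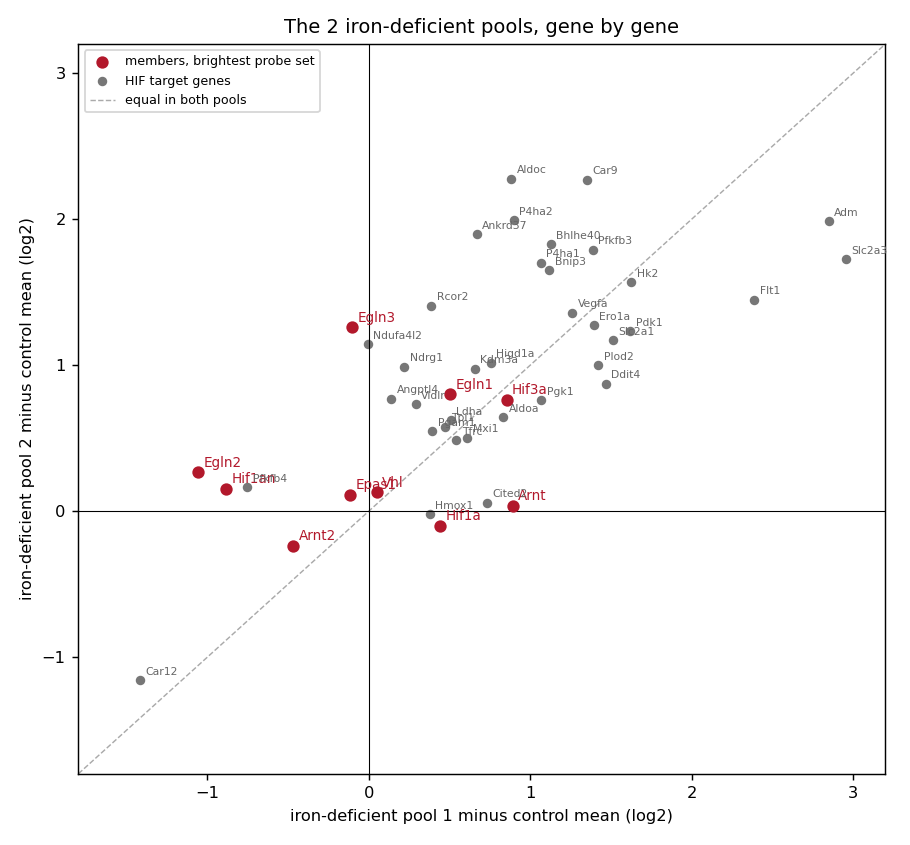
Log2 distance of iron-deficient pool 1 (x axis) and pool 2 (y axis) from the mean of the control pools, for the brightest probe set of each member gene (red) and of other HIF target genes (grey); the dashed line marks equal distances. Egln3 lies at -0.10 and 1.26, beside Ndufa4l2 at -0.01 and 1.14, while Egln2 lies at -1.06 and 0.27.

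Genes with the most similar pattern to 4 members were found by the root mean square distance of log2 values, each less its own mean, over the 4 pools. With so few points a close match is easy to reach, and the distances are descriptions. Closest to Egln3 were Ppp1r3c, a glycogen-targeting phosphatase subunit (389.3 and 953.9 in the iron-deficient pools, against 400.7 and 366.6 in the control pools, distance 0.05), a dim probe set of the mitochondrial protein Higd1a (71.3 and 195.9, against 86.1 and 82.1) and Gys1, the glycogen synthase of muscle and other tissues (163.5 and 479.5, against 195.4 and 181.6). These 3 probe sets were high in pool 2 alone. The brightest probe set of Higd1a read 2505.5 and 3003.7, against 1360.2 and 1620.1, and was higher in both iron-deficient pools. Closest to Egln1 were Nell1, Fxyd1 and Edn1, which encodes endothelin (55.9 and 72.6, against 38.2 and 38.8). Closest to Hif3a were Mall, Gle1 and Gpc6, and closest to Epas1, whose range over the pools was 0.26 on the log2 scale, were St8sia2, Rab23 and Ankle1.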

How the data were processed

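The 4 pools were compared, 2 per maternal diet, with groups and pool numbers from the labels. The deposited values are linear intensity values, 1 per probe set and array, each array scaled by the authors to a trimmed mean of 250.0 as the values show. The submitters' processing notes name RMA, which such linear values do not match, so which software made them, and any genome build, stays unstated here. No column was left unused.

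Intensities were turned to log2, with zeros set to 0.1. Control probe sets (64) and the lowest 40% of the other 45037 by mean log2 (a signal of 17.3) were left out. Differences were fitted with limma 3.58.1 in R 4.3.3 (lmFit, eBayes, diet as the only term, two-sided, 2 residual and 3.49 prior degrees of freedom), with Benjamini-Hochberg adjustment over 27022 probe sets, and the procedure was tested on simulated data. Errors after ± are SEs of a log2 difference. Symbols come from the platform annotation (34945 probe sets with 1 symbol, 932 with several, 9160 with none), and an update through GRCm38.p6 gene IDs changed 0 of them. The number of arrays limits precision.

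The members and gene lists were chosen with earlier results of these data known. All member probe sets are named. From each list the text names up to 4 genes of smallest p plus 10 fixed genes (Aco1, Ireb2, Cited2, Ep300, Crebbp, Cul2, Aldoa, Pgk1, Vegfa and Slc2a1), and 3 look-alikes for each of 4 members. Car12, Flt1, Ndufa4l2, Aldoc, Ankrd37 and Alas2 were named after their values were seen. Promoter windows are those of RefSeq. Alternatives were no filter, a 60% filter, quantile normalization, median centring, an intensity trend, robust moderation, array weights, the pool number as a block, an offset of 16, 1 probe set per gene, and each pool left out.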

Additional observations from a re-analysis of the deposited data

Results flagged for a closer look

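Control probe sets outside the comparison stood apart in iron-deficient pool 1. The 18S 5′ control probe set read 2144.5 there and 243 in iron-deficient pool 2, against 291.9 and 289.4 in the control pools. The geometric mean of 18 hybridisation spike controls was 2840 in iron-deficient pool 1 and 1945 in the other iron-deficient pool, against 1368 and 1772 in the control pools.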

How the results depend on the processing

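With 2 pools per diet, the counts depended on single pools. The count of probe sets past an adjusted limma p of 0.05 was 0, with 1069 at an unadjusted p under 0.05. It was 13 with 1 probe set per gene, 479 with the replicate block, and 0 to 75 when each pool was left out (31 without control pool 2 and 75 without control pool 1). With the block or without a control pool, limma's prior degrees of freedom were infinite, so that all probe sets shared 1 variance. Of the member probe sets, 4 lay at an unadjusted p under 0.05, and 2 of these 4 did after quantile normalization, with array weights and with the replicate block. The lower ones, of Hif1a and Hif1an, were lost after quantile normalization and after median centring. Without a filter the count was also 2, but only Egln1 was among the 4, and the other was the dim Hif3a probe set 1421572_at. With 1 probe set per gene, only the brightest of each member gene was tested. Of the 4, that setting kept only the one of Hif3a, which still lay under 0.05, so it did not test the others again. The count was 0 to 10 when each pool was left out. Of 83 other pathway genes, 24 lay there, and 4 to 40 when each pool was left out, while the share of all probe sets ran from 1.24% to 39.0%. No member probe set passed the adjusted threshold under any setting run. With the block, Adm, Hk2, Pfkfb3 and Slc2a3 passed. Deviations of same-numbered pools correlated at 0.357, and with 2 pairs they share only a number.

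Signs turned after quantile normalization for the brightest probe sets of Hif1a (-0.053) and Vhl (-0.067), and after median centring, which by its construction adds 0.20 to every difference, for Epas1 (0.19), Ireb2 (0.16) and Cul2 (0.13). When each pool was left out, sign-changing log2 differences ran from -0.10 to 0.44 and from -0.11 to 0.70 for Hif1a, -0.13 to 0.13 for Epas1, -0.20 to 1.38 and -0.18 to 1.20 for Arnt, -1.06 to 0.27 for Egln2, -0.10 to 1.26 for Egln3, -0.89 to 0.15 for Hif1an and -0.10 to 0.30 for the dimmer Vhl probe set. They ran from -0.12 to 0.29 for Aco1, -0.085 to 0.020 for Ireb2, -0.10 to 0.12 for Fbxl5, -0.092 to 0.51 for Ep300, -0.17 to 0.042 for Cul2 and -0.15 to 1.09 for Siah1a. The cause of the turns other than those of median centring was not tested. Of all probe sets at an unadjusted p under 0.05, 28.9% were higher, against 54.8% after median centring, 40.7% after quantile normalization, 46.2% without a filter, 52.4% with the block and 81.8% without control pool 1. Dim probe sets limit what can be said of 10 of the 30.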

Other observations

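The HIF subunits belong to the bHLH-PAS family of transcription factors. Other members of it, listed together with the PAS-domain period proteins Per1, Per2 and Per3, differed in both directions. Of 11 tested, period proteins included, both iron-deficient pools were higher for 3 and lower for 4, where 13.1% and 26.0% of all genes were. Arntl, the clock activator, read 46.1 and 56.6 in the iron-deficient pools and 120.1 and 107.9 in the control pools (-1.16 ± 0.32), with a limma p of 0.0137 and adjusted p = 0.852. Per3, a period protein, read 532.5 and 329.2, against 238.5 and 211.5 (0.90 ± 0.38), and Npas2, a partner of Arntl, read 38.2 and 57.7, against 31.3 and 22.1 (0.84 ± 0.39). By limma their unadjusted p of 0.0580 and 0.0785 missed 0.05, with adjusted p = 0.852 for each. Clock, another partner of Arntl, differed by -0.32, and Per1 and Per2, relatives of Per3, overlapped between diets at 0.15 and 0.20. These 3 were named after their values were seen. Sim2 read 28.9 and 56.9, against 97.4 and 106 (-1.33 ± 0.43), with a limma p of 0.0238 and adjusted p = 0.852. Leaving out each pool gave -1.81 to -0.84 for Sim2, 0.55 to 1.25 for Per3 and 0.54 to 1.13 for Npas2. None of these passed over all probe sets.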
